A study of Mus musculus with 56 samples.

Results

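The transcripts of 10 endolysosomal genes that act on peptides for MHC class II were followed in cortical and medullary thymic epithelial cells (cTECs and mTECs) around parturition: *Prss16*, *Ctsl*, *Ctss*, *Ctsb*, *Ctsd*, *Ctsh*, *Ctsz*, *Ctsc*, *Lgmn* and *Ifi30*. They were taken by name, through their Ensembl identifiers, from the 50600 genes quantified in each sample, and all 10 passed the filter on low values in every comparison. Their levels are given as FPKM, read fragments scaled for transcript length and library depth, in 56 RNA samples, 28 of each cell type. The tests run across all genes were used to ask how the genes differed between the cell types and over the course of regrowth.

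The samples came from female B6.SJL mice (B.6SJL-Ptprca Pep3b/BoyJ-CD45.1). Pregnant females had been mated with BALB/cJ males and their pups were taken away at birth. No other allele or agent was used, and the age of the mice was not given beyond the controls being age-matched. For each cell type, 3 samples were taken from non-pregnant controls (NPC), from females shortly before parturition (D-2), on the day of parturition (D0), and on D3, on D6 and on D12. The remaining 10 time points had 1 sample each: D1 and D2, D4 and D5, D8 and D10, D16 and D20, and D24 and D28. Each sample was sorted from 1 mouse, cTECs as EpCAM+CD45-UEA1- and mTECs as EpCAM+CD45-UEA1+ cells. Samples from D0 to D12 formed the early phase (18 per cell type) and those from D16 to D28 the late phase (4 per cell type).

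Peptides for MHC class II are cut in endosomes and lysosomes, and the invariant chain that guards the groove is trimmed there before a peptide can be loaded. In the thymus this work is split by place. cTECs, which present the peptides of positive selection, are known for cathepsin L (*Ctsl*) and for the thymus-specific serine protease (*Prss16*), whereas dendritic cells, B cells and mTECs are known for cathepsin S (*Ctss*). The other members are the cysteine proteases cathepsin B (*Ctsb*), H (*Ctsh*), Z (*Ctsz*) and C (*Ctsc*), which differ in whether they cut within a chain or trim its ends, the aspartic protease cathepsin D (*Ctsd*), asparaginyl endopeptidase (*Lgmn*), and the thiol reductase GILT (*Ifi30*), which is no protease but opens disulfide bonds so that proteases can reach the chain.

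On GRCm38 the annotation placed *Prss16* (ENSMUSG00000006179.8) at chr13:22002173-22009742 and *Ctsl* (ENSMUSG00000021477.8) at chr13:64359337-64370890, both on the minus strand. *Ctss* (ENSMUSG00000038642.10) lies at chr3:95526786-95556403 on the plus strand. All but *Prss16*, *Ctsh* and *Lgmn* lie over another annotated gene on one or the other strand (for *Ctsl* the antisense Gm47123, for *Ctsb* *Fdft1*, for *Ctsz* *Nelfcd*, and on the same strand Gm49369 for *Ctsd* and the pseudogenes Gm49230 for *Ctsl* and Hmgb1-ps5 for *Ctss*). Of the 10, only *Ctsd* had expected counts that were not whole, and whether strand was used in counting was not given in the sources used here.

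Promoter sequences from RefSeq (GRCm38.p6) were matched for 7 members, and there was no entry for *Prss16*, *Ctsb* and *Ctsh*. For *Ctss*, *Ctsz* and *Ctsc*, all higher in mTECs, the 250 bases before the start held no annotated exon and the start was also a GENCODE start, so these 3 stretches are shown to compare genes that lay on the same side of the cell type difference. Capitals mark any match, on either strand, to the E-box CACGTG, to the core of the interferon-stimulated response element, GAAA, any pair of bases and GAAA, or to GACGC, the core bound by FOXN1. *Ctss* is read from chr3:95526536-95526785 (plus strand), *Ctsz* from chr2:174439040-174439289 (minus strand) and *Ctsc* from chr7:88277835-88278084 (plus strand).
Ctss: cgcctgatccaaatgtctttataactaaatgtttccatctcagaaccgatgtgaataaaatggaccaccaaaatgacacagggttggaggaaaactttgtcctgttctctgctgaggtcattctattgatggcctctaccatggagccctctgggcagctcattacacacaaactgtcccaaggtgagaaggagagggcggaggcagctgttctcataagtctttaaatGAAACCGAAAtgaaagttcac
Ctsz: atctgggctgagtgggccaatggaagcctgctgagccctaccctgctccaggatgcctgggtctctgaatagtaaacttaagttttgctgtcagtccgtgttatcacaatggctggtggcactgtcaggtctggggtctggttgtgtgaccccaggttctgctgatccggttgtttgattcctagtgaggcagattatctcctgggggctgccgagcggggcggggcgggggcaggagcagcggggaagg
Ctsc: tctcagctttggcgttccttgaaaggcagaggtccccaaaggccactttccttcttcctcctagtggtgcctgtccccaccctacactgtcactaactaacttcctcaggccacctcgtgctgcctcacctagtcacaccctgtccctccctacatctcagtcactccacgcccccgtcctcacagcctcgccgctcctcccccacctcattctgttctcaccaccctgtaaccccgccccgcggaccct
*Ctss* held 1 match, to the interferon response core, close to its start, and *Ctsz* and *Ctsc* held 0 matches to the 3 motifs. Of 32851 RefSeq promoter stretches of this length, 2.98% held the interferon response core, 6.02% the E-box and 22.6% GACGC.

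The libraries held 4561208 to 108547384 expected counts (median 17972566). Replicate libraries correlated at 0.666 to 0.959, and no library repeated another. Of all libraries, cTEC D3 replicate 2 and mTEC D3 replicate 1 stood farthest from the rest of their cell type (median correlation 0.673 and 0.688), and results that rest on them are also given without them. The sort labels matched their markers: 7 of 9 cTEC markers were higher in cTECs and 7 of 8 mTEC markers, *Aire* and *Spib* among them, were higher in mTECs past the thresholds used below. Transcripts of marker genes of other cells were present in both cell types, and whether such cells were their source was not tested. The summed FPKM of 12 thymocyte markers ran from 23.4 to 314 in the cTEC samples and from 8.7 to 115 in the mTEC samples, that of 15 macrophage and dendritic cell markers from 4.48 to 49.9 and from 22.8 to 255, and that of 4 B cell markers from 0 to 8.87 and from 2.12 to 16.8. The highest macrophage and dendritic cell sums lay above the mean of *Ctss*, 10.1 FPKM in cTECs and 57.3 in mTECs. The defining macrophage gene *Adgre1* was at 0 in 19 of 28 cTEC samples and 5 of 28 mTEC samples, and the dendritic cell gene *Itgax* in 15 and 11. The level of *Lyz2*, of the same list, is given below. In such sorted bulk samples, fewer cells of a type and less RNA per cell cannot be told apart.

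*Ctsl* was the most abundant of the 10 transcripts in both cell types, and *Prss16* the next. Over the 28 cTEC samples *Ctsl* ran from 759 to 4733 FPKM with a mean of 2386 ± 962 (SD), and *Prss16* from 170 to 3248 FPKM with a mean of 1714 ± 987. Their means differed by less than the larger SD. Below them stood *Ctsd* at 159 ± 31.3 FPKM, *Ifi30* at 63.0 ± 15.1 and *Ctsb* at 48.5 ± 8.03. *Ctsz*, *Ctsh*, *Lgmn*, *Ctsc* and *Ctss* followed with means from 27.8 down to 10.1 FPKM, and no neighbours in this lower run differed by more than the larger SD. *Ctss* was thus the last of the 10 in cTECs, at 2.23 to 22 FPKM.

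In mTECs *Ctsl* had a mean of 1040 ± 438 FPKM (426 to 2090, n = 28), more than its SD above *Prss16* at 183 ± 137 (24.4 to 625). From *Prss16* down through *Ifi30*, *Ctsz*, *Ctsd*, *Ctsh*, *Ctss* and *Ctsb* to *Ctsc* at 38.0 ± 16.4 FPKM, each gene differed from the next by less than the larger SD. *Ctss* stood seventh, at 57.3 ± 21.9 FPKM (25.7 to 114), and *Lgmn* last, at 15.0 ± 4.81. The order of the 10 genes was the same in TPM in both cell types, which is little of a check, since TPM rescales all FPKM of a sample alike.

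*Prss16* and *Ctsl* together made up 89.5% ± 7.28 (SD, n = 28) of the summed FPKM of the 10 genes in cTECs, and 64.4% ± 13.6 in mTECs. In cTECs this share was lowest at D-2, at 73.8% ± 7.28 (n = 3), against 92.1% ± 0.619 in NPC and 95.9% ± 0.577 at D6. The mTEC share was 56.8% ± 9.95 at D-2, and 80.0% ± 8.26 by D6, with 50.3% ± 10.1 on D12. A share of this sum follows its largest members, and no test was run on it.

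**Figure D1:**
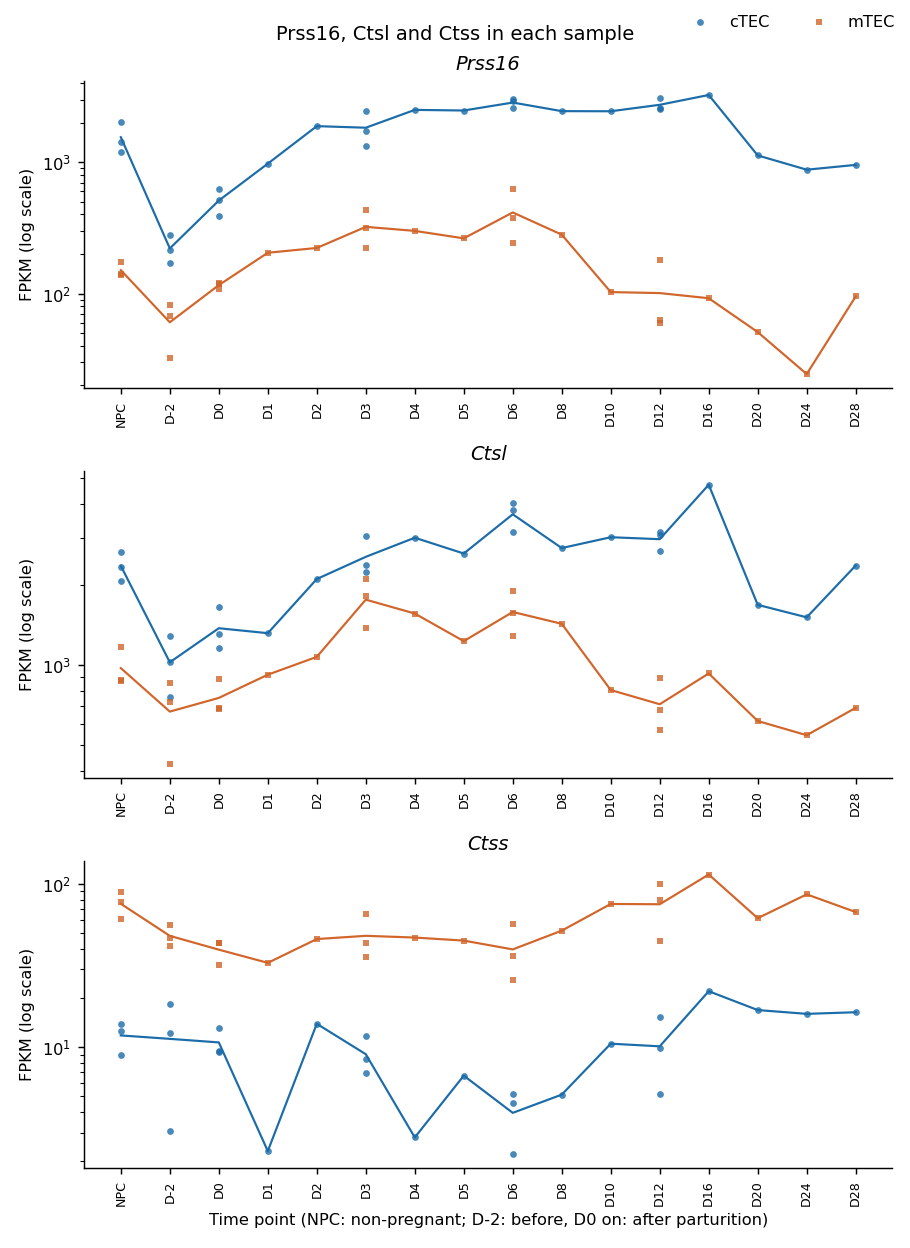
FPKM (log scale) of *Prss16*, *Ctsl* and *Ctss* in each of the 28 cTEC samples (circles) and 28 mTEC samples (squares) by time point; lines join the means, and time points are evenly spaced. *Prss16* and *Ctsl* lie higher in cTECs, with a dip at D-2 to means of 221 and 1023 FPKM, and *Ctss* lies higher in mTECs at all 16 time points.

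cTECs and mTECs differed in 6 of the 10 genes, and in opposite directions. *Prss16* and *Ctsl* were higher in cTECs, while *Ctss*, *Ctsh*, *Ctsz* and *Ctsc* were higher in mTECs. The comparison used the 18 samples per cell type of the 6 replicated time points and called a gene whose fold-change reached 2 with an adjusted p no higher than 0.01 (limma-voom, Benjamini-Hochberg over all genes). It called 16.2% of the 18394 genes tested. The median log2 fold change (cTEC over mTEC) was -0.48 over the 10 genes and 0.03 over all genes tested.

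*Prss16* was higher in cTECs at all 16 time points. The log2 fold change was 3.18 ± 0.225 (SE), with an adjusted p of 3.63e-14. The ratio of means was smallest at D-2, 3.65, and was 10.3 in NPC, 6.86 at D6 and 27.1 at D12, and at each of the 6 replicated time points all cTEC samples lay above all mTEC samples. The lowest cTEC sample of the series, at D-2 (170 FPKM), nevertheless lay below the highest mTEC sample, at D6 (625 FPKM).

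*Ctsl* was also higher in cTECs at all 16 time points, but by less. Its log2 fold change was 1.14 ± 0.126, with an adjusted p of 2.02e-09. The samples of the cell types were apart at 5 of the 6 replicated time points and overlapped at D-2, where cTECs had 1281, 759 and 1029 FPKM and mTECs 723, 426 and 856 FPKM. The ratio of means ran from 1.43 at D1 to 5.09 at D16. Without the filter on low genes *Ctsl* kept its direction (log2 fold change 1.59) with an adjusted p of 0.997 by limma-voom.

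*Ctss* showed the reverse. All 18 cTEC samples of the test lay below all 18 mTEC samples, with means of 9.48 ± 4.43 and 54.3 ± 20.7 FPKM (SD). The log2 fold change was -2.66 ± 0.223 (adjusted p 3.25e-12). The mTEC mean exceeded the cTEC mean at all 16 time points, from 3.3 times at D2 to 16.75 times at D4.

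The other mTEC-sided genes are exopeptidases of the cysteine cathepsin family. *Ctsh*, an aminopeptidase, had a log2 fold change of -2.33 ± 0.208 (18.8 ± 9.34 against 83.7 ± 48.5 FPKM), *Ctsz*, a carboxypeptidase, -2.02 ± 0.148 (28.2 ± 10.6 against 106 ± 36.2), and *Ctsc*, a dipeptidyl peptidase, -1.70 ± 0.149 (13.0 ± 5.74 against 37.2 ± 14.4). For each of the 3, all mTEC samples lay above all cTEC samples at each of the 6 replicated time points. *Ifi30* differed in the same direction by less than 2-fold (log2 fold change -0.87 ± 0.0909, adjusted p 5.67e-10; 66.3 ± 10.6 against 122 ± 35.1 FPKM), and *Ctsd* differed the other way by less than 2-fold (0.65 ± 0.0867, adjusted p 1.15e-07; 157 ± 27.5 against 101 ± 22.4 FPKM). *Ctsb* (-0.10 ± 0.0751, adjusted p 0.343) and *Lgmn* (0.19 ± 0.161, adjusted p 0.387) did not pass either threshold.

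**Figure D2:**
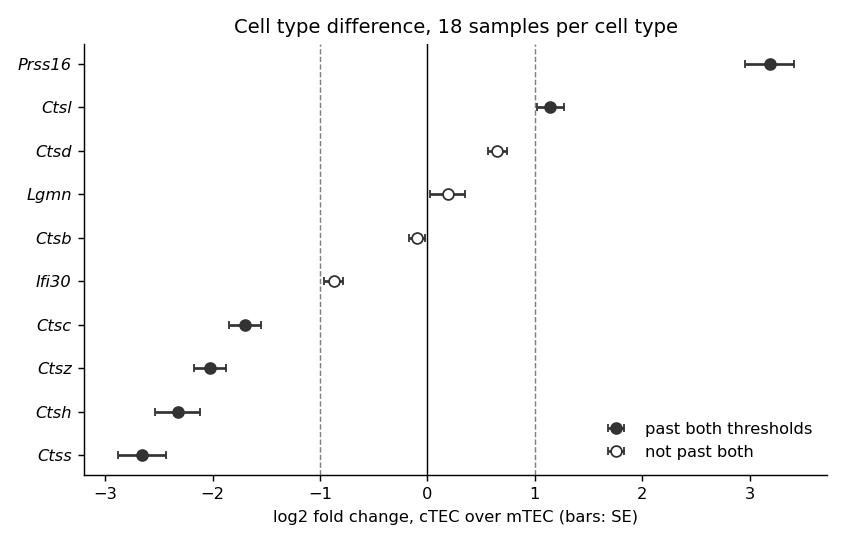
Log2 fold change of cTEC over mTEC (x axis, bars are the SE) for the 10 genes over the 18 samples per cell type; filled points passed both thresholds and dashed lines mark a 2-fold difference. *Prss16* and *Ctsl* lie on the cTEC side and *Ctss*, *Ctsh*, *Ctsz* and *Ctsc* on the mTEC side.

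Markers of other cells moved with this difference. Of the macrophage and dendritic cell list, 7 of 13 tested genes were higher in mTECs (*Adgre1*, log2 fold change -3.37 ± 0.802, and *Lyz2*, -2.47 ± 0.296, the latter picked for its level after the values were seen, 11.2 FPKM in cTECs and 57.8 in mTECs on average), and of the thymocyte list 9 of 12 were higher in cTECs. Of 5 tested fibroblast and endothelial markers, *Col1a1* (-3.09 ± 0.415) and *Pdgfra* (-2.60 ± 0.794) were higher in mTECs and *Dcn* (1.17 ± 0.148) in cTECs. Macrophages and dendritic cells also express *Ctss*, *Ctsh*, *Ctsz*, *Ctsc* and *Ifi30*, and the part of these markers in the difference was not tested. Without the libraries that stood apart the same 6 genes were called, with log2 fold changes of 3.14 for *Prss16*, 1.14 for *Ctsl* and -2.60 for *Ctss*.

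Of 10 class II genes, *H2-Ob*, a subunit of the peptide-exchange inhibitor H2-O, was higher in mTECs (log2 fold change -1.46 ± 0.241) and none was higher in cTECs. Their summed FPKM was 14800 ± 1550 in cTECs and 16000 ± 2050 in mTECs (SD, n = 28). Of 24 lysosome genes only the glucuronidase *Gusb* was called, higher in mTECs (-1.96 ± 0.123), and the median over the list was 0.32. Of 12 other endolysosomal proteases 10 were tested, and the aspartic protease *Napsa* (-4.13 ± 0.512) and the carboxypeptidase *Prcp* (-1.49 ± 0.165) were higher in mTECs. Of 10 genes listed as cysteine or serine protease inhibitors 8 were tested: cystatin B (*Cstb*), an inhibitor of cysteine cathepsins, was higher in cTECs (1.01 ± 0.125), and *Serpinb1a* (-2.41 ± 0.13) and *Cst6* (-1.42 ± 0.258) were higher in mTECs.

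The ratio of *Ctsl* to *Ctss*, both per length and from the same library, was higher in cTECs within each time point but overlapped across the series. In cTECs it ran from 41.1 at D-2 replicate 2 to 1413 at D6, with a median of 222 (n = 28). In mTECs it ran from 6.32 to 73.7, with a median of 18.6 (n = 28). The mTEC samples above the lowest cTEC sample were D3 replicates 2 and 3 (50.8 and 48.4) and D6 replicates 2 and 3 (73.7 and 42.8). No test was run on this ratio, whose parts are tested above.

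**Figure D3:**
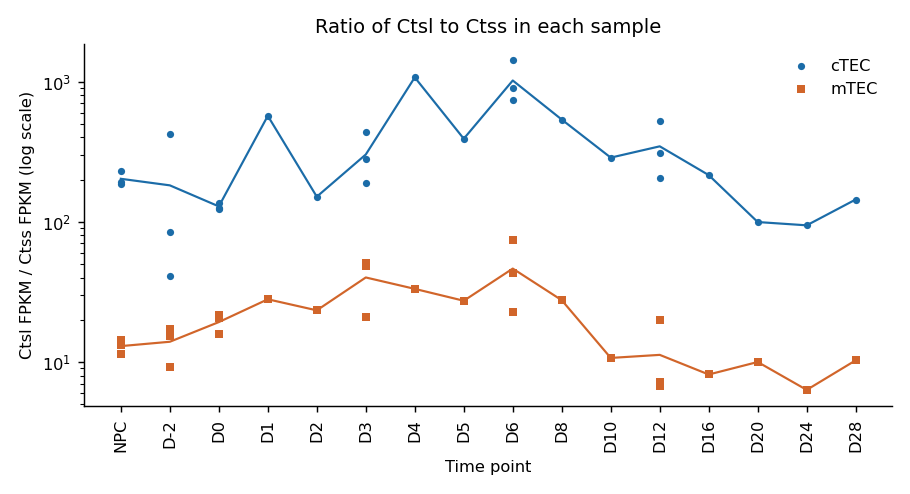
Ratio of *Ctsl* FPKM to *Ctss* FPKM (log scale) in each cTEC sample (circles) and mTEC sample (squares) by time point; lines join the means. cTECs reach a mean of 1017 at D6, and the 4 late mTEC samples lie between 6.32 and 10.3.

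In cTECs of pregnant mice the levels of *Prss16* and *Ctsl* lay below those of NPC, but the difference missed the threshold set across all genes. *Prss16* was at 1436, 2020 and 1194 FPKM in the NPC samples and at 278, 170 and 214 FPKM at D-2. *Ctsl* was at 2063, 2336 and 2657 FPKM in NPC and at 1281, 759 and 1029 FPKM at D-2. For both genes every D-2 sample lay below every NPC sample. The log2 fold changes (D-2 over NPC) were -2.78 ± 0.277 for *Prss16* (adjusted p 0.0291) and -1.19 ± 0.199 for *Ctsl* (adjusted p 0.0908). The comparison called 0 of 15845 genes (0%), with 1564 at an unadjusted p below 0.05. DESeq2, limma-voom with no filter on low genes and limma-voom fitted to all 28 cTEC samples each called both genes. With all 28 samples the adjusted p values were 4.99e-05 and 0.00413. The edgeR quasi-likelihood test, RLE scaling, sample weights, the replicate block and every fit with a sample left out called 0 genes.

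None of the other 8 genes passed the test in pregnant cTECs. *Ctsd* was at 185, 189 and 198 FPKM at D-2 and at 151, 136 and 119 FPKM in NPC, without overlap, but its log2 fold change of 0.52 ± 0.163 had an adjusted p of 0.412. The remaining 7 had adjusted p values from 0.575 to 0.919 and overlapping samples. The median log2 fold change was 0.27 over the 10 genes and 0.03 over all genes tested. The thymocyte markers in the same libraries summed to 23.4 to 24.4 FPKM at D-2 and to 29.3 to 168 in NPC, and the cTEC markers to 1660 to 2530 and 3760 to 7600, and their part in the values of *Prss16* and *Ctsl* was not tested.

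In mTECs none of the 10 genes was called at D-2. *Prss16* was at 140, 174 and 138 FPKM in NPC and at 81.5, 32.3 and 67.6 at D-2, with a log2 fold change of -1.23 ± 0.314 (adjusted p 0.17). *Ctsl* had a log2 fold change of -0.51 ± 0.269 (adjusted p 0.444). *Ctss* (-0.50 ± 0.236), *Ctsh* (-0.68 ± 0.247) and *Ifi30* (-0.43 ± 0.204) had adjusted p values of 0.319 to 0.407. These genes and *Prss16* had all D-2 samples below all NPC samples, but how many of all genes did so was not counted. The comparison called 0 of 17743 genes (0%), with 2267 at an unadjusted p below 0.05, while a fit of all 28 mTEC samples called 101 genes and no filter 26, none of the 10 among them. The median was -0.36 over the 10 genes and 0.17 over all genes tested.

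The comparisons of D0, D3 and D6 share the D-2 samples. After parturition *Prss16* and *Ctsl* rose in both cell types, and of the 10 genes only they passed the thresholds in the tests of D0, D3 and D6 against D-2 as run here. At D0, *Prss16* in cTECs was at 519, 623 and 390 FPKM, above all D-2 samples, but its log2 fold change of 1.19 ± 0.26 had an adjusted p of 0.377, and DESeq2 alone among the tests called it. Limma-voom as reported called 0 genes for D0 against D-2 in cTECs (0%, 614 at an unadjusted p below 0.05) and in mTECs (0%, 1126). With no filter it called 2 in cTECs, and with sample weights 81 in mTECs. The single cTEC samples of D1 and D2 held 975 and 1881 FPKM of *Prss16*.

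By D3 the 3 cTEC samples held 1714, 2451 and 1325 FPKM of *Prss16* and 2221, 3035 and 2368 FPKM of *Ctsl*, all above every D-2 sample. The log2 fold changes were 3.03 ± 0.258 (adjusted p 6.39e-06) and 1.28 ± 0.172 (adjusted p 0.00101), in a comparison that called 0.151% of genes. Without the libraries that stood apart they were 2.84 (adjusted p 5.91e-05) and 1.18 (adjusted p 0.00967). Leaving out replicate 1 of every group ended both calls (adjusted p 0.0217 and 0.0384), and leaving out replicate 2 ended that of *Ctsl* (adjusted p 0.141).

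In mTECs at D3 *Prss16* was at 313, 430 and 223 FPKM and *Ctsl* at 1372, 1806 and 2090 FPKM, above every D-2 sample. The log2 fold changes were 2.30 ± 0.393 and 1.31 ± 0.223, both with an adjusted p of 0.00789, where 0.163% of genes were called. Without the libraries that stood apart *Ctsl* held (log2 fold change 1.51, adjusted p 0.00607) and *Prss16* did not (2.34, adjusted p 0.0201). The edgeR quasi-likelihood test called neither (adjusted p 0.0178 for *Prss16* and 0.0214 for *Ctsl*), and leaving out replicate 1, 2 or 3 ended both calls.

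At D6 both genes had their highest mean of the 6 replicated time points in cTECs. *Prss16* reached 2564, 3046 and 2925 FPKM and *Ctsl* 3151, 3804 and 4048 FPKM. Against D-2 the log2 fold change was 3.71 ± 0.216 for *Prss16* (adjusted p 7.09e-05) and 1.83 ± 0.208 for *Ctsl* (adjusted p 0.00158), in a comparison that called 1.34% of genes. Both were called under each alternative and with each replicate left out.

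*Ctsh*, by contrast, was lower at D6 in cTECs: 5.06, 8.84 and 8 FPKM against 20.9, 43.1 and 22.8 FPKM at D-2, without overlap. Its log2 fold change of -2.05 ± 0.369 had an adjusted p of 0.0134, and the edgeR quasi-likelihood test (adjusted p 0.00754) and DESeq2 called it. The other 7 genes ranged from -1.42 for *Ctss* to 0.01 for *Ifi30* with adjusted p values of 0.0613 to 0.984, and *Ctsb*, *Ctsd* and *Lgmn* had all D6 samples below all D-2 samples. Of the 15845 genes tested by limma-voom, 3686 had an unadjusted p below 0.05, and how many had no overlap was not counted. The median log2 fold change was -0.74 over the 10 genes and -0.03 over all genes tested.

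In mTECs at D6 *Prss16* was at 242, 624 and 377 FPKM against 81.5, 32.3 and 67.6 at D-2. The log2 fold change was 2.79 ± 0.381 (adjusted p 0.00945), in a comparison that called 0.299% of genes. This call is close to the threshold: leaving out any of the 6 samples ended it (adjusted p 0.0104 to 0.036), as did a fit to all 28 mTEC samples (0.0121). *Ctsl* was at 1284, 1895 and 1558 FPKM against 723, 426 and 856, without overlap, with a log2 fold change of 1.30 ± 0.254 (adjusted p 0.0312), and DESeq2 and limma-voom with sample weights called it. The other 8 genes lay between -0.54 and 0.20, with adjusted p values of 0.18 or more.

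Whether the rise to D6 was larger in cTECs than in mTECs was tested as an interaction, which called 0.00544% of genes and none of the 10. The estimate (cTEC minus mTEC, log2) was 0.93 ± 0.474 for *Prss16* (adjusted p 0.453) and 0.54 ± 0.348 for *Ctsl* (adjusted p 0.56). A difference in response between the cell types was therefore not detected for either gene, with SEs that leave room for one.

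**Figure D4:**
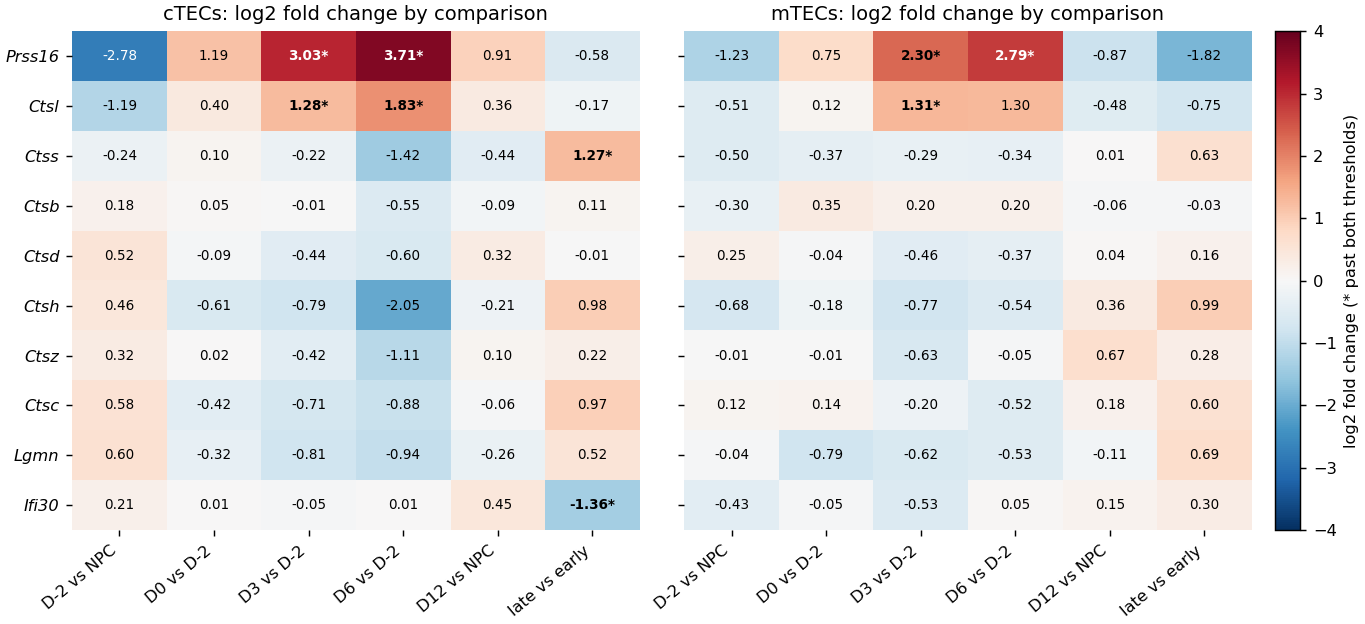
Log2 fold change of each gene (rows) in 6 comparisons (columns) in cTECs (left) and mTECs (right), as colour and number; an asterisk marks a gene past both thresholds. *Prss16* and *Ctsl* carry the asterisks after parturition, up to 3.71 for *Prss16* in cTECs at D6, and *Ctss* and *Ifi30* carry them in late cTECs.

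Markers of cTECs and a protease inhibitor rose in the same D6 comparison. Of 9 cTEC markers 7 rose in cTECs, among them the Notch ligand *Dll4* (log2 fold change 3.95 ± 0.349), the thymoproteasome subunit *Psmb11* (3.67 ± 0.343), *Cd83*, which stabilises class II molecules on cTECs (3.66 ± 0.266), and *Tbata* (3.18 ± 0.28). *Foxn1*, the transcription factor of thymic epithelium, was at 1.15 ± 0.292 (adjusted p 0.0499) in cTECs and 1.08 ± 0.263 (adjusted p 0.0663) in mTECs. Cystatin B (*Cstb*) rose in cTECs by 2.01 ± 0.168 on the log2 scale. Of 9 tested endolysosomal proteases outside the 10 genes, the serine carboxypeptidase cathepsin A (*Ctsa*, -1.50 ± 0.16) and cathepsin F (*Ctsf*, -1.64 ± 0.201) fell in cTECs. None of 10 class II genes and none of 24 lysosome genes was called, with medians of 0.05 and -0.07. In mTECs, *Tbata* was the 1 called gene of the 9 cTEC markers (1.88 ± 0.258), and *Spink5*, a serine protease inhibitor, fell (-2.81 ± 0.253). Thymocyte markers summed to 67.8 to 90.2 FPKM in the D6 cTEC samples, above the 23.4 to 24.4 at D-2, with 0 of 12 called, and their part in the rise was not tested. Of 4 tested fibroblast and endothelial markers only *Dcn* was called in cTECs, where it fell (-1.32 ± 0.179, adjusted p 0.00355). The list summed to 104 to 154 FPKM at D6 and 277 to 369 at D-2, but its median log2 fold change was -0.13. The part of this list was not tested either.

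Over the 6 replicated time points, a moderated F test asked for any change. In cTECs it called *Prss16* (adjusted p 2.46e-07) and *Ctsl* (1.92e-05), and 0.902% of all genes. In mTECs it called *Prss16* (0.00261), *Ctsl* (0.00286) and *Ctsh* (0.00451), and 1.05% of all genes. *Ctsh* in mTECs fell from 127 ± 25.2 FPKM in NPC to 40.1 ± 5.00 at D3 and stood at 159 ± 13.0 at D12 (SD, n = 3). *Ifi30* in mTECs had the same shape, 154 ± 11.02, 79.9 ± 6.38 and 169 ± 22.7 FPKM, with an adjusted p of 0.0143, and *Ctsz* (0.0416) and *Ctss* (0.0779) missed the threshold too. Both sets of calls depended on the samples and the settings. In cTECs, leaving out replicate 1 of every group ended both calls (adjusted p 0.0116 for *Prss16* and 0.0174 for *Ctsl*), as did omitting the filter on low genes (0.726 and 0.464). In mTECs, leaving out replicate 1, 2 or 3 of every group left 0 of the 10 called, and the edgeR test called *Prss16* alone. The macrophage and dendritic cell markers of the mTEC libraries summed to 109 to 182 FPKM in NPC, 73.8 to 124 at D-2, 48.7 to 81.4 at D3, 22.8 to 83.9 at D6 and 118 to 191 at D12. Like *Ctsh* and *Ifi30*, these sums were higher in NPC and at D12 than at D3. The lowest of these sums was in a D6 sample. At D6 *Ctsh* ran from 24.4 to 91.7 FPKM and *Ifi30* from 82.8 to 157, against 36.4 to 45.8 and 74.0 to 86.7 at D3. Of the list 1 of 13 genes was called (*Mrc1*), and the part of these markers in the patterns was not tested.

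**Figure D5:**
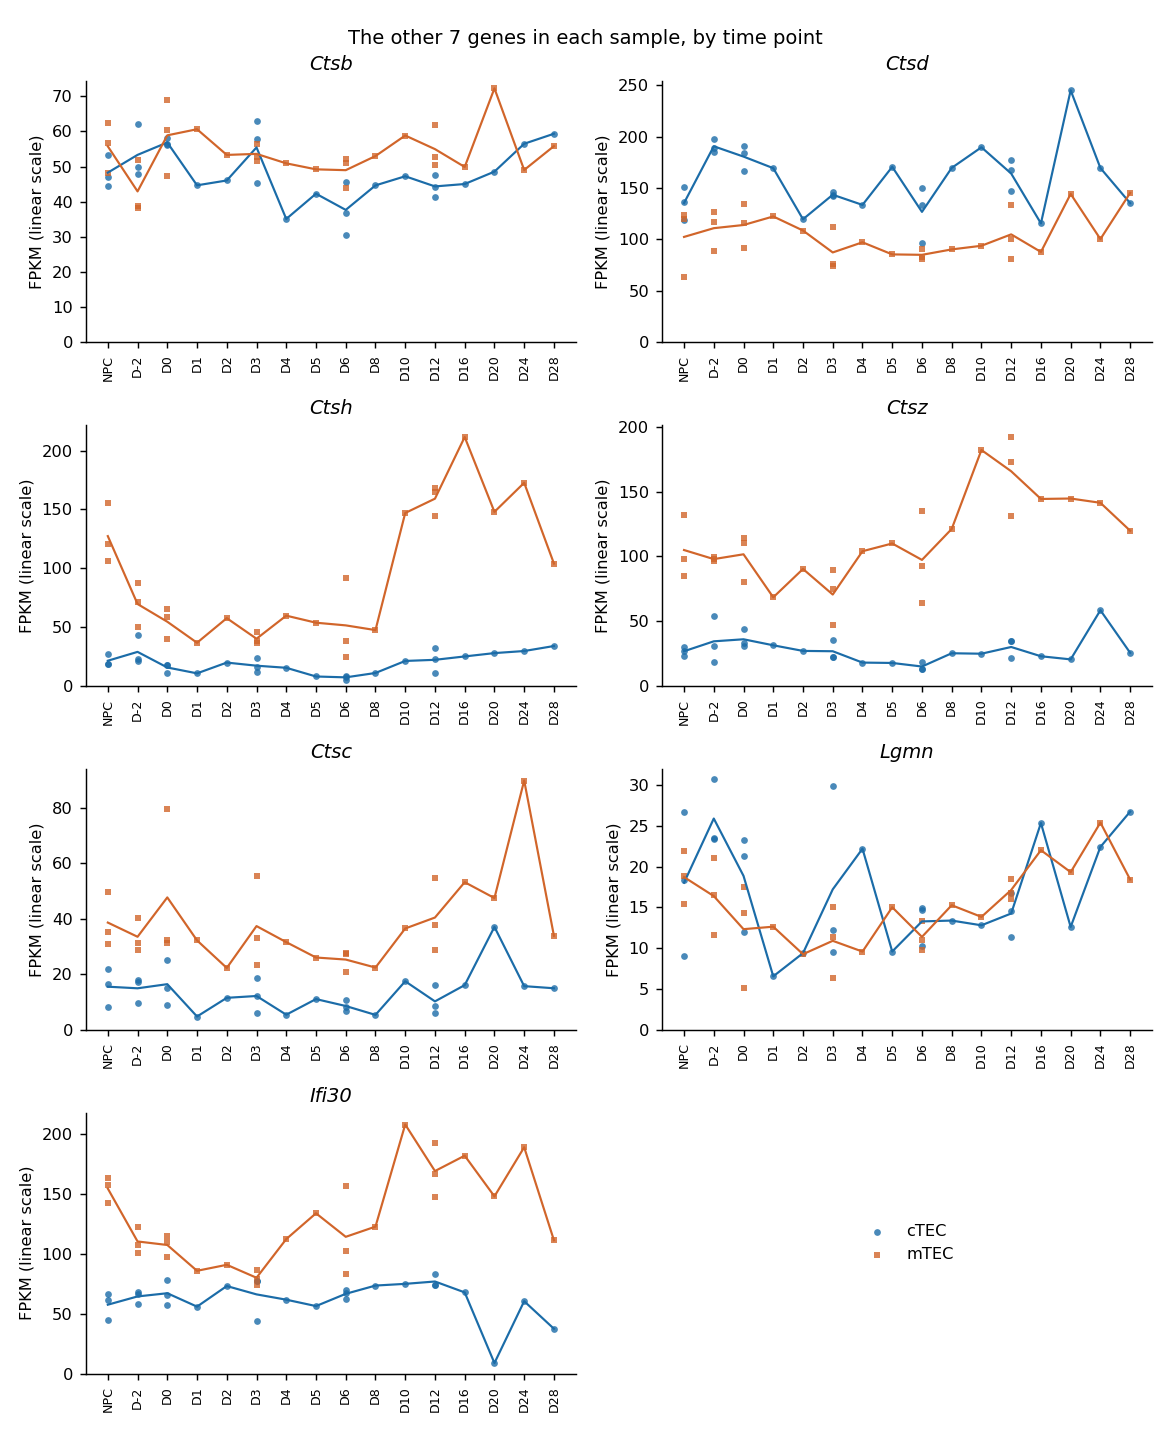
FPKM (linear scale from 0) of the 7 genes other than *Prss16*, *Ctsl* and *Ctss* in each cTEC sample (circles) and mTEC sample (squares) by time point; lines join the means, and time points are evenly spaced. In mTECs *Ctsh* reaches its highest value at D16 (212 FPKM) and *Ifi30* at D10 (207 FPKM), and *Ifi30* in the D20 cTEC sample lies at 8.84 FPKM.

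By D12 none of the 10 genes differed from NPC past the thresholds. *Prss16* in cTECs was at 3065, 2589 and 2551 FPKM at D12, above all NPC samples (log2 fold change 0.91 ± 0.233, adjusted p 0.528), and *Ctsl* was at 2670, 3061 and 3146 FPKM, above them as well (0.36 ± 0.144, adjusted p 0.53). In mTECs both pointed the other way, with *Prss16* at 179, 60.1 and 63.1 FPKM (-0.87 ± 0.318, adjusted p 0.72) and *Ctsl* at 891, 572 and 675 FPKM (-0.48 ± 0.181, adjusted p 0.72), and their samples overlapped those of NPC. Limma-voom called 0 of 15845 genes in cTECs (0%, 1481 at an unadjusted p below 0.05) and 0 of 17743 in mTECs (0%, 1173).

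In the late phase *Ctss* was called higher and *Ifi30* lower in cTECs than in the early phase. The test had no term for the day, so its 4 late samples, each from another day, stood as replicates of a phase. The 4 late cTEC samples held 22, 16.9, 16.0 and 16.4 FPKM of *Ctss*, all above the 18 early samples, which ran from 2.23 to 15.4 FPKM. Outside this comparison, the cTEC samples of NPC ran from 8.98 to 13.8 FPKM, and those of D-2 from 3.05 to 18.45, within the late range at the top. The log2 fold change was 1.27 ± 0.277 (adjusted p 0.00592), in a comparison that called 1.41% of genes. The edgeR test (adjusted p 0.143), D12 counted as late (0.251), single-sample time points only (0.0683) and no filter on low genes (0.0154) did not call *Ctss*, DESeq2 gave it no adjusted p, and leaving out the D16, D20 or D28 sample raised its adjusted p to 0.0105, 0.0166 and 0.024.

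The *Ifi30* call depended on the samples and the tool. The late cTEC samples held 67.7, 8.84, 60.4 and 37.4 FPKM at D16, D20, D24 and D28, and the early ones 44.0 to 82.8 FPKM. The log2 fold change was -1.36 ± 0.283 (adjusted p 0.00449). Without the D20 sample it was -0.54 (adjusted p 0.0384), and without the D28 sample the adjusted p was 0.0147. The D20 library correlated least with its cell type among the late cTEC libraries (median 0.759). The edgeR test (adjusted p 0.142), DESeq2 (0.0662), D12 counted as late (0.314) and single-sample time points only (0.0931) did not call *Ifi30*, and with sample weights its change was under 2-fold (log2 fold change -0.62). *Ctsc* (0.97 ± 0.255, adjusted p 0.0177) and *Ctsh* (0.98 ± 0.301, adjusted p 0.0378) were near 2-fold higher in late cTECs without passing the threshold, and *Prss16* (-0.58 ± 0.46) and *Ctsl* (-0.17 ± 0.279) varied widely, with 3248, 1126, 877 and 954 FPKM of *Prss16* at D16, D20, D24 and D28.

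Other genes moved with late cTECs. *Foxn1* was lower (-1.28 ± 0.262, adjusted p 0.00386), and of the mTEC markers *Aire* (2.07 ± 0.436) and *Cd80* (3.08 ± 0.713) were higher, as was *Dcn* of the fibroblast and endothelial list (1.27 ± 0.279). The summed macrophage and dendritic cell markers were 17.6 to 49.9 FPKM in late and 4.48 to 32.5 in early cTECs, with 0 of 9 called. The fibroblast and endothelial markers were 288 to 668 and 68.6 to 346, with 1 of 4 called. The part of these genes in the rise of *Ctss* was not tested.

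In late mTECs none of the 10 genes was called, against 0.062% of all genes. *Prss16* had the largest change, with 92.1, 50.9, 24.4 and 95.1 FPKM at D16 to D28 against 60.1 to 624 FPKM in the early samples (log2 fold change -1.82 ± 0.491, adjusted p 0.0502). *Lgmn* (0.69 ± 0.184, adjusted p 0.0487), *Ctsc* (0.60 ± 0.173, adjusted p 0.0599) and *Ctsh* (0.99 ± 0.297, adjusted p 0.0698) also missed the threshold. With D12 counted as late *Prss16* and *Ctsh* were called.

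The genes most like *Prss16*, *Ctsl* and *Ctss* over the 28 samples of a cell type were ranked by Pearson's r of log2(FPKM + 0.5), among genes with a mean of at least 5 FPKM (10068 in cTECs and 10502 in mTECs) other than the 10. These values describe samples that share time points and depth, and carry no test. For *Prss16* in cTECs they were *Tbata* (r = 0.981, rho = 0.927), *Cd83* (0.974, 0.967), *Fabp5* (0.974, 0.94), *Crip3* (0.971, 0.92) and *Ccl25* (0.963, 0.885). In mTECs they were *Ccl25* (0.917), *Tbata* (0.913), *Psmb11* (0.887), *Cstb* (0.873) and *Dpp6* (0.871). For *Ctsl* in cTECs they were *Pithd1* (0.923), *Crip3* (0.92), *Fabp5* (0.915), *Tmem131l* (0.914) and *Ly75* (0.913), and in mTECs *Tnc* (0.893), *Pkp1* (0.889), *Tbata* (0.887), *Cstb* (0.878) and *Crip3* (0.857).

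The neighbours of *Ctss* were other genes. In cTECs they were *Gjb2* (0.785), *Adam8* (0.78), *Serpinb1a* (0.764), *Il4i1* (0.756) and *Wfdc18* (0.747), and in mTECs *Lsp1* (0.855), *Srgn* (0.85), *Nsmce2* (0.835), *Tmsb4x* (0.833) and *Htra4* (0.831). *Foxn1* ranked 693 for *Prss16* in cTECs (r = 0.506) and 2243 for *Ctsl* (r = 0.249), and its r with *Ctss* was -0.477. In mTECs its r was 0.604 with *Prss16*, 0.39 with *Ctsl* and -0.553 with *Ctss*.

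Among the 10 genes, *Prss16* and *Ctsl* ran together in both cell types (r = 0.928 in cTECs and 0.9 in mTECs, n = 28). In mTECs *Ctsh*, *Ifi30* and *Ctsz* ran together (r = 0.888 for *Ctsh* with *Ifi30*, 0.864 for *Ctsz* with *Ifi30* and 0.762 for *Ctsh* with *Ctsz*), and *Ctss* ran with *Ctsh* (0.815) and *Ifi30* (0.758). *Prss16* ran against *Ctsh* in mTECs (-0.674) and less so in cTECs (-0.391), and *Ctss* ran with *Ctsh* in cTECs too (0.741). These samples share their time points, and the values are descriptions.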

How the data were processed

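Poly-A RNA of FACS-sorted cTECs and mTECs was sequenced, each sample from 1 mouse. The authors trimmed reads with Trimmomatic 0.35, aligned them to GRCm38 with STAR 2.5.1b and quantified genes with RSEM 1.2.28, and bcl2fastq 2.20 is named in the submitters' processing notes. The deposited values are RSEM expected counts (91.4 to 98.0% whole, within 0.005), TPM and FPKM per gene. The annotation release and strand setting are not given in the sources used here. Identifiers were matched without their version to GENCODE M21 (50376 of 50600).

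Levels are FPKM as deposited by the authors, and TPM served only to check the order of genes. Expected counts were rounded and tested with limma 3.58.1 (voom, with TMM scaling from edgeR 4.0.16, R 4.3.3) over genes with a mean of at least 0.5 FPKM in the cell type, or in either where both entered. Calls needed a fold-change of 2 or more together with an adjusted p (Benjamini-Hochberg) no higher than 0.01, and the F test the adjusted p alone. cTEC against mTEC had time point as a covariate. D0 and D3 against D-2 came from a fit of 18 samples, and D-2 and D12 against NPC and D6 against D-2 from 6 samples. Comparisons with a common group (D-2 or NPC) share its samples. Statements that the samples of 2 groups lay apart or did not overlap are descriptions. How many of all genes did so was not counted. Alternatives were edgeR quasi-likelihood, DESeq2 1.42.0, RLE scaling, no filter on low genes, sample quality weights, a replicate block, other sample sets and leaving out replicates. The block was the replicate number within a cell type, and the time point with the title number where both cell types entered. Removing cTEC D3 replicate 2 and mTEC D3 replicate 1 was added after the data were seen. The scripts were tested on simulated data.

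The 10 genes and the gene lists were chosen with earlier results of these data known. The text names all 10, up to 4 called genes of a list with the largest change, the 5 genes most like *Prss16*, *Ctsl* and *Ctss*, and *Foxn1*, and says where it goes beyond this. Samples with the same number in their title were not treated as pairs in the tests as reported, only in that block. Of 16 such cTEC and mTEC pairs, 4 had deviations correlated above 0.1 (-0.169 to 0.169).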

Additional observations from a re-analysis of the deposited data

Results flagged for a closer look

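Among the 20 groups of 4 late samples tested (10 genes in 2 cell types), 5 held a sample whose gap to its nearest neighbour was large for the group's range (Dixon's ratio above 0.829), where chance gives about 1 in 20. These were *Prss16* in the cTEC sample of D16 (3248 FPKM), *Ctss* in the same sample (22 FPKM), *Ctsz* in the cTEC sample of D24 (58.5 FPKM), *Ctsc* in the cTEC sample of D20 (37.1 FPKM) and *Ctsz* in the mTEC sample of D28 (119.9 FPKM). Late samples come from 4 different days, so a day and a library cannot be told apart.

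For a pair of genes every sample of a group lay on one side of the NPC mean in cTECs and on the other in mTECs. In mean log2(FPKM + 0.5), *Ctsl* at D12 stood 0.33 above the NPC mean in cTECs and -0.47 from it in mTECs, where its samples overlapped those of NPC. *Ifi30* at D-2 stood 0.16 above it in cTECs, where its samples overlapped those of NPC, and -0.49 from it in mTECs. The difference between the cell types was not tested for either gene.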

How the results depend on the processing

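The 6 calls between cTECs and mTECs numbered 6 under each alternative (with no filter *Ifi30* was called and *Ctsl* was not), and *Prss16* and *Ctsl* were called at D6 in cTECs under each. No called value changed direction, while *Prss16* in late cTECs, not called, was at -0.58 as reported and 0.71 without the filter. DESeq2 called 2 members in cTEC D-2 against NPC, 2 in mTEC D6 against D-2, 1 in cTEC D0 against D-2, 0 in late cTECs and 1 in late mTECs. Without the filter 2 were called in cTEC D-2 against NPC, 0 by the cTEC F test, 0 at D3 in cTECs, 0 at D3 in mTECs, 1 in late cTECs and 1 in late mTECs. The edgeR test called 1 by the mTEC F test, 0 at D3 in mTECs and 0 in late cTECs. Sample weights gave 2 at D6 and 1 at D3 in mTECs. A fit of all 28 samples gave 2 in cTEC D-2 against NPC and 0 in mTEC D6. With D12 as late there were 0 in cTECs and 2 in mTECs, and with single-sample time points only 0 in late cTECs. The replicate block left 1 call at D3 in mTECs (*Ctsl*), and removing the libraries that stood apart left 1 there. Between the cell types the block paired cTEC and mTEC samples by time point and title number, and there the log2 fold change for *Prss16* was 3.14. Leaving out replicates gave 0 to 0 calls at D6 and at D3 in mTECs and by the mTEC F test, 0 to 2 by the cTEC F test, 0 to 2 at D3 in cTECs and 0 to 2 in late cTECs. The causes were not tested.

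Over all genes the count of calls moved more than 1.5 times in most comparisons over time. For cTEC D6 it was 213, with 60 (without a D-2 library) to 757 (DESeq2), for mTEC D6 53, with 0 to 470, for cTEC D3 24, with 0 to 193, for mTEC D3 29, with 0 to 163, for late cTECs 223, with 0 to 1045, for late mTECs 11, with 2 to 159, for the cTEC F test 143, with 0 to 676, for the mTEC F test 186, with 0 to 1296, and for the interaction 1, with 1 to 126. DESeq2 called 96 and 165 genes at D-2 against NPC, 23 and 5 at D12 and 15 and 18 at D0 in cTECs and mTECs, sample weights 81 at D0 in mTECs, no filter 46 and 26 at D-2, 1 and 4 at D12 and 2 at D0 in cTECs, and the fit of all 28 samples 15 and 101 at D-2, where limma-voom as reported called 0.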
